A study of Arabidopsis thaliana with 8 samples.

Results

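Gibberellins are growth hormones of plants that act in stem elongation, germination and the growth of flowers, stamens and fruit. In the late steps of their synthesis soluble oxidases make the bioactive forms, and oxidases of another class, the 2-oxidases, inactivate them. The hormone binds the GID1 receptors, upon which DELLA proteins, the repressors of the response, are degraded and genes held down by them can be transcribed. The 4 genes described here cover synthesis, inactivation and response. GA20OX1 (AT4G25420, also known as GA5) and GA20OX2 (AT5G51810) encode paralogous oxidases of the late synthesis steps. GA2OX6 (AT1G02400), which the reference table also lists as DTA1 (downstream target of AGL15), encodes an inactivating 2-oxidase. GASA4 (AT5G15230) encodes a small cysteine-rich peptide of a family named for its regulation by gibberellins.

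Each of the 4 genes is read by 1 probe set of the Affymetrix ATH1 array, out of 22746 probe sets tested. The genes were taken by name, and their probe sets by the locus that the study's supplementary lists pair with them (254065_at, 248371_at, 259445_at and 250109_at in the order above). Those lists hold genes picked for large differences on these same arrays. GA20OX1 and GASA4 were listed for mature median against mature lateral nectaries, and GA20OX2 and GA2OX6 for mature against immature lateral nectaries. The tests of these genes are therefore not independent evidence of their direction, above all in the comparison for which each was listed.

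Nectaries of wild-type Arabidopsis thaliana, ecotype Columbia-0, were dissected by hand and pooled, with about 250 to 300 nectaries in a pool according to the sample records. Immature lateral nectaries (ILN, 3 pools), which do not yet secrete, came from flowers at stages 11 to 12, before the flower opens. Mature lateral nectaries (MLN, 3 pools), which secrete nectar, and mature median nectaries (MMN, 2 pools), which are described as non-secretory, came from flowers at stages 14 to 15. All plants were 30 to 35 days old and kept under 16 h light and 8 h dark, and every pool was collected 4 to 8 h after dawn. Replicates came from different sets of plants. Whether pools of different nectary types shared plants is not stated. Labelling started from 500 ng of RNA for ILN and MLN and from 250 ng for MMN, so this difference and the nectary type cannot be told apart in the comparisons with MMN. Values are probe signal intensities on a linear scale on which each array has a median of 100. Of the array's signals, the lower quartile lay between 31.6 and 41.9. Precision is limited by how few arrays there are, with only 2 for MMN.

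Replicate arrays had correlations of 0.963 to 0.988 over all probe sets (log2 scale). The nectary genes CRC, SWEET9 and cwINV4 had summed signals of 31842 to 42300 over the 8 arrays. Of 15 markers of other tissues 5 could be assigned a probe set of their own with the annotation used. Those of the tapetum, A9 and AMS, summed to 42.6 to 59.4, and those of carpel and ovule, INO and NGA3, to 67.5 to 141. No pollen marker could be assigned a probe set. RCA, the Rubisco activase gene of green tissue, had signals of 2146 to 4108 in ILN, 4521 to 6444 in MLN and 6171 to 6173 in MMN. It was the only one of the 5 with a limma adjusted p under 0.05 between MLN and ILN (log2 difference of 0.82, limma adjusted p = 0.0327). AMS was also higher on every MLN array than on any ILN array (0.36, limma adjusted p = 0.0673). The 3'/5' ratio of the ubiquitin control was also higher on every ILN array (2.65 to 3.60) than on any mature array (2.08 to 2.39), while that of GAPDH overlapped. The actin ratio was 13.9 on ILN 3 and 12.2 on ILN 2, against 8.00 on ILN 1 and 7.08 to 8.66 on the mature arrays. The part of RCA and of these ratios in the differences from ILN was not tested. ILN 1 had the highest GAPDH and ubiquitin ratios and ILN 3 the highest actin ratio. All calls of the 4 genes were the same without ILN 1, ILN 2 or ILN 3. Since the ubiquitin ratio was higher on every ILN array, leaving out single arrays could not test its part.

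The 2 synthesis paralogues had different profiles over the nectary types. GA20OX2 was high in both mature types, whereas GA20OX1 was high in MMN and low in MLN. GA2OX6 was at the low end of the scale in ILN and high in both mature types, and GASA4 was lowest in MLN and highest in MMN. In the log2 model fitted by limma to all 8 arrays, with p adjusted over all probe sets by the Benjamini-Hochberg method and a call at an adjusted p under 0.05, all 4 genes were called between MLN and ILN (3 higher and 1 lower in MLN), where 23.6% of all probe sets were called. Between MMN and MLN 2 of the 4 were called, both higher in MMN, where 0.73% of all probe sets were called. Between MMN and ILN all 4 were higher in MMN, where 18.8% were called in either direction. The last comparison shares its arrays with the other ones. The arrays of MLN and ILN did not overlap for any of the 4 genes, as for 41% of all probe sets (25.8% higher and 15.2% lower in MLN). Those of MMN and MLN did not overlap for 3 of the 4, all higher in MMN, as for 25.1% of all probe sets (11% higher and 14.1% lower). Those of MMN and ILN did not overlap for any of the 4, all higher in MMN, as for 50.8% of all probe sets (31.3% higher and 19.5% lower). Since the genes had been listed for their differences on these arrays, nothing is read from these counts against the background.

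**Figure D1:**
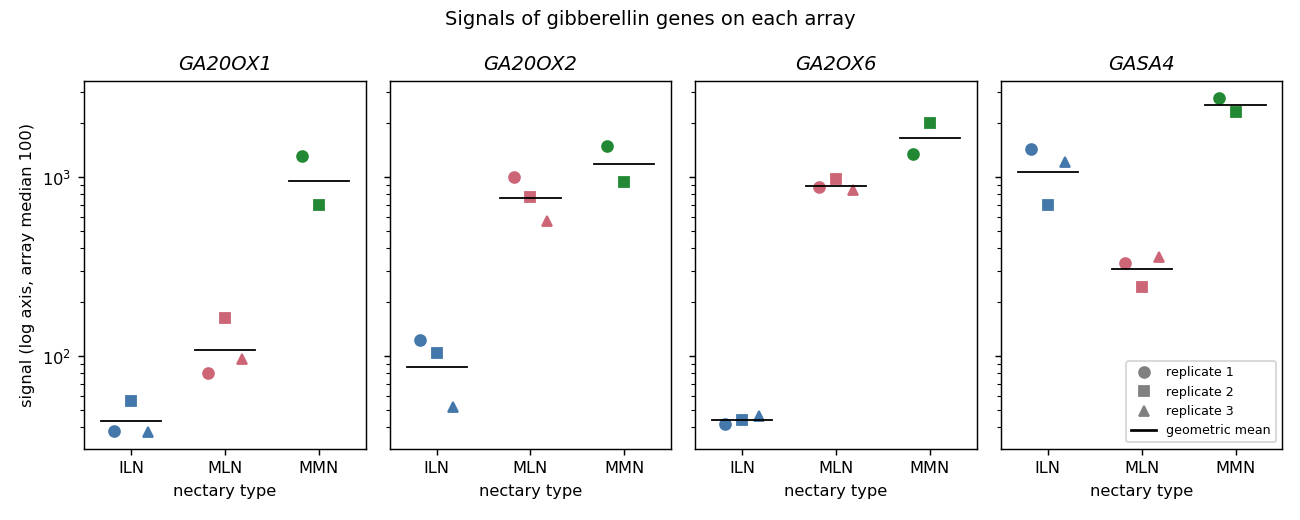
Signal of each gene (log axis, each array scaled to a median of 100) on the 3 ILN, 3 MLN and 2 MMN arrays, with 1 point for each array, its shape giving the replicate number, and a line at the geometric mean of the nectary type. GA20OX2 and GA2OX6 are high in both mature types, GA20OX1 is far higher in MMN (694 to 1312) than in MLN (80.3 to 164), and GASA4 is lowest in MLN.

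GA20OX1, the oxidase gene whose loss makes plants semi-dwarf, had signals of 38.2, 55.8 and 37.6 on ILN 1 to 3, of 80.3, 164 and 95.7 on MLN 1 to 3, and of 1312 and 694 on MMN 1 and 2. The nectary types thus did not overlap, and their order was ILN below MLN below MMN. The ILN arrays were close to the lower quartile of all signals, and whether they lay above background was not determined here, so folds from ILN are ratios of deposited signals only. With 16 added to every signal the log2 difference was 1.07 in place of 1.32 between MLN and ILN and 4.03 in place of 4.47 between MMN and ILN, with the same calls. MMN exceeded MLN 8.84-fold (log2 difference 3.14, standard error 0.36, limma adjusted p = 0.00210), the 18th largest of all 22746 probe sets in that direction. MMN exceeded ILN 22.1-fold (4.47, standard error 0.36, limma adjusted p = 1.48e-05). The difference between MLN and ILN was much smaller, 2.50-fold (95% confidence interval 1.54 to 4.06, limma adjusted p = 0.0115), rank 706 among the rises of all probe sets. By the methods' t-test on linear signals that difference had an unadjusted p of 0.0576. In such pooled tissue, a lower share of expressing cells and less RNA in each of them cannot be told apart.

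GA20OX2, whose product acts beside that of GA20OX1 in stems, flowers and fruit, had signals of 124, 104 and 51.8 on the ILN arrays, of 1003, 773 and 571 on the MLN arrays, and of 1486 and 943 on the MMN arrays. Every mature array was above every ILN array, while MMN 2 lay within the range of MLN. MLN exceeded ILN 8.74-fold (log2 difference 3.13, standard error 0.33, limma adjusted p = 8.41e-05), and MMN exceeded ILN 13.6-fold (3.76, standard error 0.37, limma adjusted p = 6.50e-05). These ranked 77 and 72 among the rises of all probe sets. MMN and MLN, neighbours in the order of levels, did not differ beyond their spread. Their difference of 0.64 on the log2 scale was not called (limma adjusted p = 0.806), and its 95% confidence interval of -0.18 to 1.45 leaves room for folds of up to 2.73.

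**Figure D2:**
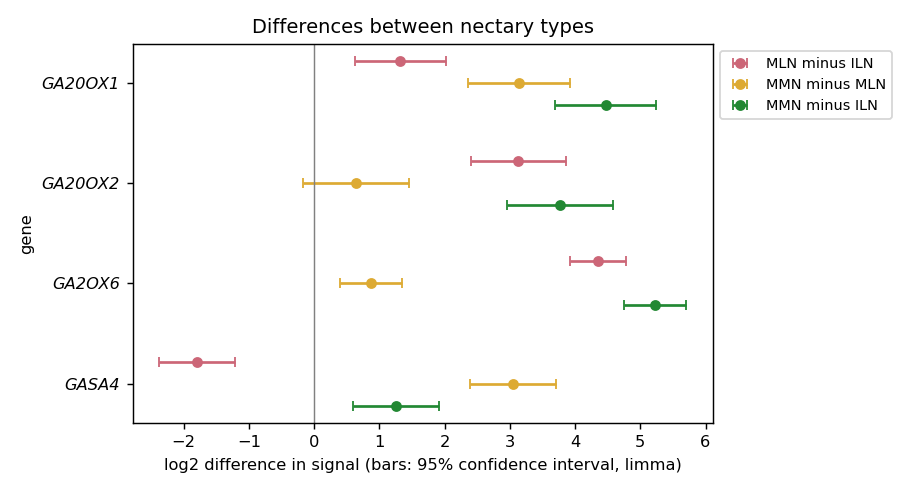
Log2 differences in signal for the 4 genes in the 3 comparisons, with bars for the 95% confidence interval from limma. GA20OX1 and GASA4 show their steps of about equal size between MMN and MLN (3.14 and 3.05), and GA20OX2 and GA2OX6 theirs between MLN and ILN (3.13 and 4.35).

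The contrast between the paralogues was tested as the log2 ratio of GA20OX1 to GA20OX2 within each array, of which only changes between nectary types are read, since the probe sets of different genes respond differently. Relative to the ILN mean the ratio was -0.68, 0.13 and 0.55 on ILN 1 to 3, -2.63, -1.22 and -1.56 on MLN 1 to 3, and 0.84 and 0.57 on MMN 1 and 2. All MLN arrays lay below all others, and MMN 2 lay just above ILN 3. From ILN to MLN the ratio of signals fell by 1.80 on the log2 scale (standard error 0.50). GA20OX1 on the ILN arrays, and GA20OX2 on ILN 3 (51.8), were near the low end of the scale and not shown to be above background, so the size of this step, and that between MMN and ILN, is uncertain. From MLN to MMN it was 2.51 higher (standard error 0.56), or 5.69-fold. Between MMN and ILN it differed by 0.70 (standard error 0.56), or 1.63-fold. Over the 3 nectary types the ratio differed by an exact permutation test of the F statistic (p = 0.0107 over 560 assignments of the 8 arrays, of which 0.00357 is the smallest possible). Leaving out single arrays gave a permutation p of 0.00952 to 0.0476. The pair had been proposed with its profiles known, so this p describes the arrays and is no independent support.

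**Figure D3:**
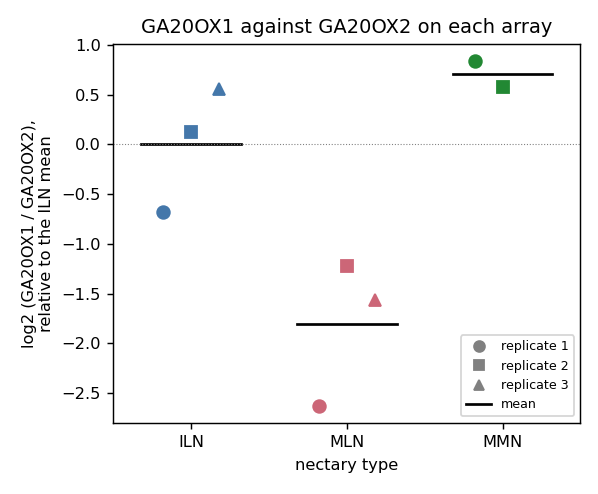
Log2 ratio of GA20OX1 to GA20OX2 on each array, relative to the mean of the ILN arrays, with 1 point for each array and a line at the mean of the nectary type. The 3 MLN arrays lie between -2.63 and -1.22, below all ILN and MMN arrays.

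GA2OX6, the inactivating gene, had signals of 41.9, 43.7 and 46.0 on the ILN arrays, of 877, 973 and 842 on the MLN arrays, and of 1349 and 2006 on the MMN arrays. Among the 4 genes it varied least between replicates, with a within-group SD of 0.20 on the log2 scale against a median of 0.24 over all probe sets. The SD was 0.49 for GA20OX1, 0.53 for GA20OX2 and 0.40 for GASA4. MLN exceeded ILN 20.4-fold (log2 difference 4.35, standard error 0.19, limma adjusted p = 4.43e-07), the 22nd largest rise of all probe sets. MMN exceeded ILN 37.5-fold (5.23, standard error 0.22, limma adjusted p = 1.66e-07), the 17th largest. As for GA20OX1, its ILN signals were near the lower quartile of all signals and were not shown to be above background, so these folds and ranks are those of the deposited signals. With 16 added to every signal the log2 difference from ILN was 3.93 for MLN and 4.80 for MMN. Both MMN arrays were above all MLN arrays, as for 11% of all probe sets, and the difference of 0.88 on the log2 scale (95% confidence interval 0.40 to 1.35) was not called (limma adjusted p = 0.128). With array weights the adjusted p from limma was 0.0313, although the estimate of the weights stopped short of its convergence tolerance. Of the synthesis and inactivation genes described here, GA20OX2 and GA2OX6 were thus higher than in ILN in both mature types. GA20OX1 was as well, but by far more in MMN (22.1-fold) than in MLN (2.50-fold).

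GASA4, the response gene, ran the other way between the lateral nectaries. Its signals were 1425, 695 and 1207 on the ILN arrays, 332, 242 and 358 on the MLN arrays, and 2772 and 2320.2 on the MMN arrays. The types did not overlap, in the order MLN below ILN below MMN. MLN was 3.46-fold lower than ILN (log2 difference -1.79, standard error 0.27, limma adjusted p = 6.74e-04), and MMN exceeded MLN 8.27-fold (3.05, standard error 0.30, limma adjusted p = 7.98e-04), the 21st largest rise between them. MMN exceeded ILN 2.39-fold (1.26, standard error 0.30, limma adjusted p = 0.0128). This last call was lost without MMN 1 (1.13, limma adjusted p = 0.114) or MMN 2 (1.39, limma adjusted p = 0.0629). GASA4 and GA20OX1 thus both rose from MLN to MMN (3.05 and 3.14 on the log2 scale), while from ILN to MLN GASA4 fell and GA20OX1 rose.

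The order of the replicates differed between genes, but for some genes it was shared by the nectary types. GA20OX2 was highest on replicate 1 of each type, and lowest on replicate 3 of ILN and MLN. GASA4 was lowest on replicate 2 of each type. MMN 1 was above MMN 2 for GA20OX1 (1.89-fold), GA20OX2 (1.58-fold) and GASA4 (1.19-fold), but below it for GA2OX6 (1.49-fold). MLN 1 had the highest GA20OX2 signal and the lowest GA20OX1 signal of its type, and MLN 2 had the highest GA20OX1 signal. Within ILN, the highest signal was 2.39 times the lowest for GA20OX2, 2.05 times for GASA4 and 1.48 times for GA20OX1, and the GA2OX6 signals lay between 41.9 and 46.0.

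Of 51 other genes of gibberellin synthesis, inactivation, perception and response placed on a list from textbook knowledge, 15 could be assigned a probe set with exactly 1 locus. The annotation used left 7896 of 22746 probe sets without a locus, so a gene left out is not thereby absent from the array. Of the 15, 9 carry their listed name in the reference table, and 6 are loci without a symbol there, listed as relatives of GASA4. GA3 was the only synthesis gene among the 15, and none of them was an inactivation gene. Between MLN and ILN 1 was higher and 1 lower, where 12% and 11.5% of all probe sets were. The median log2 difference of the 15 was 0.38, against 0.17 over all probe sets. Between MMN and MLN none was called by limma, and none had an unadjusted p under 0.05 by limma or by the methods' t-test, where 0.572% and 0.158% of all probe sets were called higher and lower. Their differences ran from -0.19 to 0.86. Between MMN and ILN 2 were higher and 1 lower, where 9.97% and 8.86% of all probe sets were, with a median of 0.41 against 0.11 over all probe sets. Of the 15, RGL1 and GA3 were assigned their probe sets by the study's supplementary files alone, like the genes described above. RGL1 was the gene called lower in both comparisons with ILN, and GA3 was called higher between MMN and ILN. Nothing is therefore read from these counts against the shares of all probe sets.

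**Figure D4:**
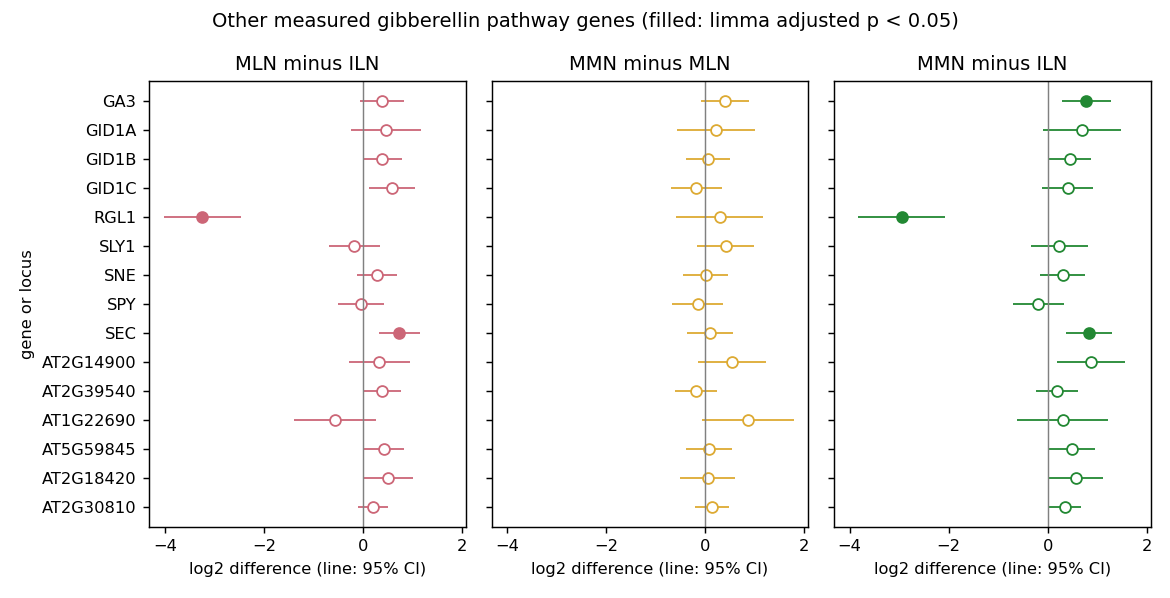
Log2 differences in signal for the 15 other pathway genes with a probe set of their own, in the 3 comparisons, with lines for the 95% confidence interval and filled points for a limma adjusted p under 0.05. RGL1 differs by -3.24 between MLN and ILN and by -2.95 between MMN and ILN, and the panel of MMN minus MLN has no filled point.

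RGL1, one of the DELLA repressor genes, was the one that fell. It had signals of 480, 1297 and 1324 on the ILN arrays, of 120, 73.9 and 110 on the MLN arrays, and of 111 and 133 on the MMN arrays. Every mature array was below every ILN array, and ILN 1 was well below the other ILN arrays. MLN was 9.46-fold lower than ILN (log2 difference -3.24, standard error 0.36, limma adjusted p = 1.10e-04) and MMN 7.72-fold lower (-2.95, standard error 0.40, limma adjusted p = 5.18e-04). By the methods' t-test the difference between MMN and ILN did not reach an unadjusted p under 0.05. That between MLN and ILN was not called after Benjamini-Hochberg adjustment of the t-test. The study's list for mature against immature lateral nectaries holds RGL1 as well. MMN and MLN differed by 0.29 (95% confidence interval -0.59 to 1.17). RGL1 was thus lower than in ILN in both mature types, whereas GASA4 was lower than in ILN in MLN and higher in MMN.

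SEC, an O-GlcNAc transferase that modifies DELLA proteins, was higher in both mature types, with signals of 652 to 849 in ILN, 1111 to 1408 in MLN and 1162 to 1491 in MMN. Its rise was 1.66-fold between ILN and MLN (limma adjusted p = 0.0162) and 1.78-fold between ILN and MMN (limma adjusted p = 0.0173), the latter not called without MMN 2 (log2 difference 0.65, limma adjusted p = 0.200). GA3, the ent-kaurene oxidase gene of early synthesis and not the hormone of that name, had signals of 436 to 564 in ILN, 543 to 720 in MLN and 704 to 947 in MMN. MMN exceeded ILN 1.72-fold (limma adjusted p = 0.0316), a call lost without ILN 1, ILN 2, MMN 1 or MMN 2 (limma adjusted p = 0.0546, 0.100, 0.282 and 0.0657). Without ILN 1 the number called higher between MLN and ILN was 4 of 15, since the receptor gene GID1C (0.79, limma adjusted p = 0.0116) and the loci AT2G39540 and AT5G59845 were added. The share of all probe sets called higher without ILN 1 is not given here, so nothing is read from this count. The receptor genes GID1A, GID1B and GID1C, the F-box genes SLY1 and SNE and the transferase gene SPY were not called in any comparison with all arrays, with differences between -0.18 and 0.69.

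For each of the 4 genes the probe sets with the most similar profile were ranked by Pearson's r of log2 signals over the 8 arrays, among 2228 other probe sets with 1 locus whose nectary type means span at least 1 on the log2 scale. The arrays fall into 3 types, so r mostly reflects the type means. Closest to GA20OX1 were AT2G19970 (0.994), AT1G48750 (0.990) and AT1G72960 (0.986), and AT2G19970 had mean signals of 30.7 in ILN, 67.4 in MLN and 362 in MMN. Closest to GA20OX2 were AT1G08800 (0.996), AT4G27652 (0.995) and the protease inhibitor gene UPI (0.990), the last with means of 24.6, 344 and 590 in the same order. Closest to GA2OX6 were the cytochrome P450 gene CYP71B31 (0.996), the UDP-glucose epimerase gene UGE2 (0.994) and AT1G77480 (0.994), and CYP71B31 had means of 18.3, 1235 and 2482. The ILN means of AT2G19970, UPI and CYP71B31 lay below the lower quartile of all signals and were not shown to be above background. For GASA4 the nearest were less alike, namely the RING-type zinc finger gene XERICO (0.930), AT1G26590 (0.924) and AT5G12050 (0.886). XERICO had 1892 to 2353 in ILN, 985 to 1709 in MLN and 3171 to 3545 in MMN, so its types also did not overlap.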

How the data were processed

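RNA from 8 pools of hand-dissected nectaries was measured on Affymetrix ATH1 arrays, with 1 array for each pool. In Genedata's Expressionist Refiner the authors ran RMA with quantile normalization on these and public reference arrays. Medians were then set to 100 in Expressionist Analyst. The deposited values are signal intensity on a linear scale for 22810 probe sets. Versions of this software: not given in the sources used here. Reference arrays and present calls were not used.

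After 64 control probe sets were left out, log2 signals were fitted by limma 3.58.1 in R 4.3.3, with 1 mean for each nectary type over all 8 arrays and variances moderated along a trend in mean signal. Benjamini-Hochberg adjustment ran over 22746 probe sets. A locus was assigned to 14234 of them, 13436 by the platform annotation and 798 by the study's supplementary files alone. The 4 genes and the lists were chosen with earlier results of these data known. Genes named are these 4, listed pathway genes called in any comparison, and the 3 most similar probe sets of each. GID1C, GID1A, GID1B, SLY1, SNE, SPY and the loci added without ILN 1 were named after their values were seen. Groups came from the sample titles. Replicates are separate sets of plants, but whether pools of different types shared plants is not stated. The procedure was tested on simulated arrays. Alternatives were the methods' t-test, the brighter 11373 probe sets, a new quantile normalization, median centring, an added signal of 16, no variance trend, array weights, a fit to the compared types alone, a block for replicate number, and single arrays left out.

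Replicate numbers were checked for pairing by the correlation, across probe sets, of deviations from the type means. It was 0.338, 0.241 and 0.211 for MLN and ILN arrays of the same number, and -0.300 to 0.0160 for those of different numbers. For MMN with arrays of the same number it was -0.0710 to 0.0721. Lateral arrays of the same number were thus more alike, but pairing was not tested, and the main tests do not include it. Figures were drawn with matplotlib 3.10.9 in Python 3.11.15. The search for motifs upstream of the genes was not run, since no sequence was used here.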

Additional observations from a re-analysis of the deposited data

How the results depend on the processing

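The calls depended most on the test. After Benjamini-Hochberg adjustment of the methods' t-test (linear signals), GA2OX6 between MLN and ILN was the only call of the 4 genes that was kept. Between MLN and ILN the log2 ratios of mean signals were then 1.37 for GA20OX1, 3.07 for GA20OX2 and -1.83 for GASA4 (adjusted p = 0.189, 0.0742 and 0.124). Between MMN and MLN they were 3.15 for GA20OX1 and 3.03 for GASA4 (0.652 and 0.341), and between MMN and ILN 4.51 for GA20OX1, 3.71 for GA20OX2, 5.26 for GA2OX6 and 1.20 for GASA4 (0.151, 0.112, 0.0933 and 0.141). The Benjamini-Hochberg adjustment is not the study's, which took false discovery rates after Storey and Tibshirani. By those it listed GA20OX1 and GASA4 for MMN against MLN at a q under 0.05. Without adjustment, only GA20OX1 between MLN and ILN was lost (1.37). With array weights GA2OX6 was called between MMN and MLN (0.89).

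Leaving out single arrays changed the call of GASA4 between MMN and ILN alone, whose difference then ran from 0.95 to 1.47. With replicate number as a block no call changed, with GA20OX2 at 0.34 and GA20OX1 at 3.05 between MMN and MLN. The ratio of the paralogues had a permutation p of 0.0278 with the block, the smallest it allows. No difference of the 4 genes changed sign under any alternative. Of the 15 other genes, the number higher in MLN than in ILN was 4 by the unadjusted t-test, 0 by the adjusted t-test, 2 without variance trend, and 1 to 4 with single arrays left out, and the number lower was 0 by the adjusted t-test and 1 to 2 with arrays left out. Between MMN and ILN the number higher was 6 by the unadjusted and 0 by the adjusted t-test, and 0 to 4 with arrays left out, and the number lower was 0 by either t-test. The causes were not tested. The shares of all probe sets called under these alternatives are not given here, so nothing is read from these counts. A new quantile normalization moved the median of all probe sets from 0.17 to 0.05 between MLN and ILN, and from 0.11 to 0.01 between MMN and ILN. Where only 1 MMN array remained, it was assumed to vary like the other types.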
